A study of Rattus norvegicus with 10 samples.

Results

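The integrated stress response genes described here are Atf3 and 9 further genes named with it (Atf4, Atf5, Ddit3, Trib3, Asns, Chac1, Ppp1r15a, Cebpb and Psat1). They were found by symbol in the deposited expression table. Rows for 8 of the 10 were found, out of 10184 rows in all, while Atf5 and Cebpb were not analysed here. The study profiled messenger RNA of RCS cells, an established line from a chondrosarcoma of the rat whose cells express cartilage collagens and aggrecan, 48 h after plating. There were 5 libraries of ARSL KO cells, in which arylsulfatase L, a sulfatase, had been knocked out, and 5 libraries of wild-type (WT) cells. Every culture was untreated and grew in DMEM with 10% fetal bovine serum and 2 mM glutamine. The labels call the libraries biological replicates, and state neither whether the ARSL KO libraries came from 1 clone nor on which days cells were grown. A difference between genotypes therefore cannot be told apart from another difference between the lines, and p-values measure the spread between these libraries.

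Background on the pathway is as follows. The integrated stress response starts when a stress-sensing kinase phosphorylates the alpha subunit of the translation initiation factor eIF2, which slows most protein synthesis while the mRNA of the transcription factor ATF4 is translated more. ATF4 then induces genes for amino acid supply, such as Asns and Psat1, and, under stronger or longer stress, the factors ATF3 and CHOP (the product of Ddit3) and the regulators Trib3, Chac1 and Ppp1r15a. ATF4 is controlled largely at translation, so its mRNA level is no direct reading of its protein. Chondrocytes secrete much matrix protein, and this response and the unfolded protein response are known to be active in growth plate chondrocytes under secretory load.

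Promoter letters of elements linked to stress responses, not all of them read by ATF4, are described next for these genes. Their part in the expression values was not tested. RefSeq promoter windows on the GRCr8 rat assembly, from 250 bases before to 50 after the annotated start, were found for 7 of the 8 genes and not for Atf3. They were searched on both strands for the C/EBP-ATF response element TGATGNAA, the related composite TGACGCAA, the cAMP response element TGACGTCA, the AP-1 element TGANTCA and the endoplasmic reticulum stress element, and no 2 of the matches found overlapped. TGATGNAA was found in Chac1 and Trib3, and in 3.98% of all 33469 windows. TGACGCAA was found in Chac1 (0.496% of all windows), TGACGTCA in Ppp1r15a (1.83%) and TGANTCA in Ddit3 and Ppp1r15a (7.33%). The stress element was found in 0 of the 7 windows (0.066% of all). The windows of Atf4, Asns and Psat1 held no match to any of these elements. The stretches upstream of the start that hold a match are given 5′ to 3′ along the gene, with the matched bases in capitals; Chac1 carries its TGATGNAA match, the second run of capitals, and Trib3 its match on the opposite strand.
Chac1: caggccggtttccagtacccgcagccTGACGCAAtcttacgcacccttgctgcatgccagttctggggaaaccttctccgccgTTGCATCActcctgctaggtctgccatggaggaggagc
Trib3: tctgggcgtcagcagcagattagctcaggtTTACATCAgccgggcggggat
Ddit3: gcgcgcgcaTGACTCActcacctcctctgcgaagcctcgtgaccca
Ppp1r15a: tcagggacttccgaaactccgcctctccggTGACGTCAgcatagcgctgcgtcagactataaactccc
The TGANTCA match of Ppp1r15a spans the start itself and is not printed. These matches describe letters in a window, not bound sites.

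Values are given as normalised reads, that is, whole reads recovered from the deposited values and divided by the size factor of the library. Differences are in the log2-like units of the deposited table, which shrink the fold change of genes with few reads. Over the listed genes the libraries held 2065594 to 2591819 reads. Libraries differed along a first principal component with 51.1% of the variance, on which WT 3, WT 4 and ARSL KO 4 scored 28.0, 26.8 and 7.91. Scores of the remaining 7 libraries ran from -15.0 to -2.96. The 8 genes are therefore also described without these 3 libraries. Of 17 chondrocyte markers 15 had rows, Col2a1 and Acan among them and Sox9 not, with a summed level of 48545 to 65536 normalised reads in ARSL KO and 52653 to 91549 in WT. Of 12 fibroblast markers 6 had rows (2218 to 2730 in ARSL KO, 2875 to 3654 in WT), with no row for Col1a1, Col1a2, Col3a1, Dcn or Lum. Of 14 endothelial, macrophage and osteoblast markers 6 had rows (974 to 1276 in ARSL KO, 970 to 1511 in WT). There was none for Pecam1, Cdh5, Ptprc or Csf1r, nor for the osteoblast markers Sp7 and Bglap. Cd68, a macrophage marker, had at most 10.5 normalised reads in any library, and the other rows of this list were osteoblast markers. No row carried the symbol Arsl, so the knockout itself was not analysed here.

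All 8 genes passed the filter on low values (mean expression 1 log2-like unit or more over the minimum of the table, about 10.7 normalised reads), as did 8431 genes in all. Of the 8, Atf3 passed the test (limma on the deposited values, Benjamini-Hochberg adjusted p under 0.05 over all tested genes) and was lower in ARSL KO cells, and 7 did not pass. Over all tested genes 1.14% passed. Atf3 was also the 1 gene of the 8 whose ARSL KO and WT values did not overlap, as in 4.26% of tested genes. The median difference of the 8 genes was -0.04, against 0.01 over all tested genes, with 4 genes above 0 and 4 below.

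Atf3 (ENSRNOG00000003745) encodes a stress-induced bZIP transcription factor that acts downstream of ATF4 and is also an immediate early gene. It had 15.0, 22.8, 22.2, 30.3 and 13.5 normalised reads in ARSL KO 1 to 5, against 34.9, 35.8, 58.0, 46.8 and 69.8 in WT 1 to 5. The highest ARSL KO library, ARSL KO 4, lay below the lowest WT library, WT 1. The mean was 20.7 ± 6.75 normalised reads in ARSL KO and 49.1 ± 14.9 in WT (SD, n = 5 each), 2.37-fold lower in ARSL KO. This was a difference of -0.64 ± 0.139 log2-like units (SE; adjusted p = 0.039 by limma). An exact permutation test of the same values gave a two-sided p of 0.0079, the smallest that 5 against 5 libraries allow. Every gene without overlap, 4.26% of tested genes, reaches that value, so it only restates the lack of overlap. Fewer cells with Atf3 mRNA and less Atf3 mRNA per cell cannot be told apart in these bulk samples. The fibroblast marker sum given above was also lower in ARSL KO than in WT, without overlap, and its part in the Atf3 difference was not tested. Within that list Col6a2, S100a4 and Vim differed by -1.11, -0.60 and -0.17, and Col5a2 and Thy1 by 0.30 and 0.08. Without WT 3, WT 4 and ARSL KO 4 the means were 18.4 ± 4.81 in ARSL KO (SD, n = 4) and 46.8 ± 19.9 in WT (SD, n = 3), with a difference of -0.66 ± 0.150 (SE; limma adjusted p = 0.011). In that fit 3.56% of tested genes passed, against 1.14% with all libraries. The call of Atf3 was nevertheless lost in 7 of the 10 fits with 1 library left out (adjusted p up to 0.127), namely without ARSL KO 1, 2, 3 or 5 or WT 3, 4 or 5. It was also lost with limma-voom on the recovered reads (difference -1.22 in log2 reads, adjusted p = 0.054).

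**Figure D1:**
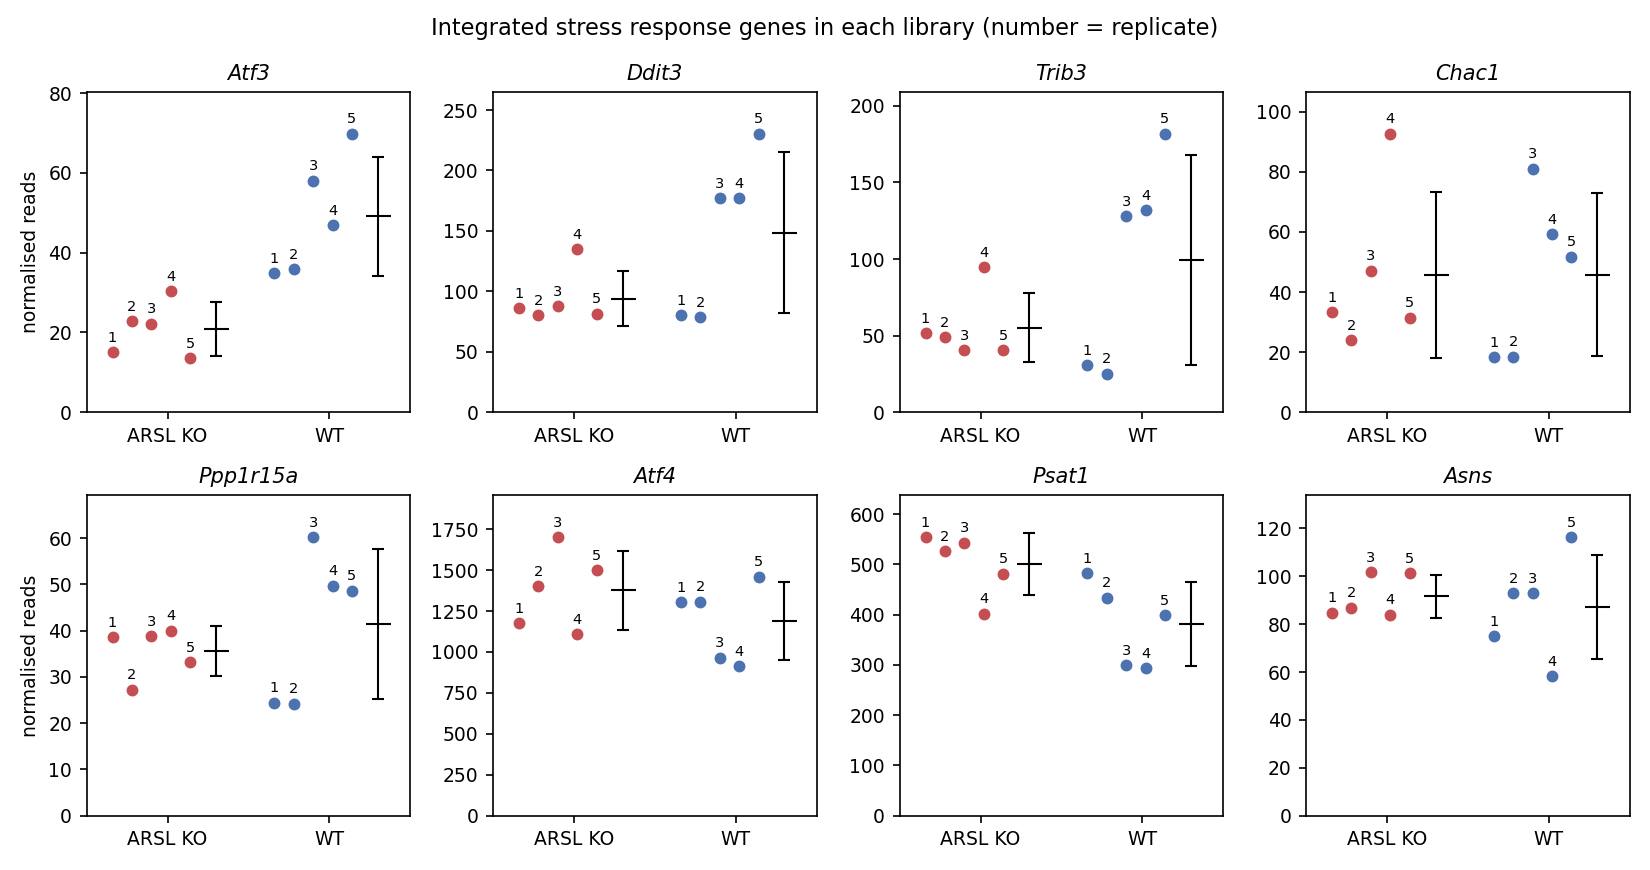
Normalised reads (vertical axis, linear, from 0) of the 8 genes in the 5 ARSL KO and 5 WT libraries, with the replicate number beside each point and the mean ± SD to the right of the points. Atf3 is the panel in which the groups do not overlap, with ARSL KO at 13.5 to 30.3 and WT at 34.9 to 69.8, while in Ddit3, Trib3, Chac1 and Ppp1r15a WT 3, 4 and 5 stand above WT 1 and 2.

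Ddit3 (ENSRNOG00000006789) encodes CHOP, a C/EBP-family factor linked to cell death under prolonged stress. It had 85.9, 80.4, 87.7, 135 and 81.6 normalised reads in ARSL KO 1 to 5, against 80.2, 78.4, 177, 177 and 230.4 in WT 1 to 5. WT 1 and WT 2 lay at the level of ARSL KO 2 and 5, and WT 3, 4 and 5 lay above every ARSL KO library. The means were 94.1 ± 22.9 in ARSL KO and 149 ± 66.9 in WT (SD, n = 5 each), with a difference of -0.43 ± 0.215 (SE; limma adjusted p = 0.397). Without WT 3, WT 4 and ARSL KO 4 the difference was -0.34 ± 0.182 (SE; limma adjusted p = 0.372).

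Trib3 (ENSRNOG00000007319) encodes a pseudokinase that is induced by ATF4 and CHOP and restrains them. It had 51.5, 48.9, 40.6, 94.7 and 40.4 normalised reads in ARSL KO 1 to 5, against 30.5, 25.2, 128, 132 and 182 in WT 1 to 5. WT thus held both the lowest and the highest values, and all 5 ARSL KO libraries lay between WT 1 and WT 3. Within WT the highest library had 7.23 times the lowest, and within ARSL KO 2.35 times. The SD of Trib3 among WT libraries, 0.87 log2-like units, was larger than that of 99.8% of tested genes, whose median was 0.20. The difference between genotypes was -0.41 ± 0.319 (SE; limma adjusted p = 0.591), and -0.22 ± 0.254 without WT 3, WT 4 and ARSL KO 4 (SE; limma adjusted p = 0.749).

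Chac1 (ENSRNOG00000014387) encodes an enzyme that degrades glutathione and is induced by ATF4. It had 33.3, 23.9, 47.1, 92.7 and 31.4 normalised reads in ARSL KO 1 to 5, against 18.3, 18.4, 81.0, 59.3 and 51.8 in WT 1 to 5. The highest library of all was ARSL KO 4, and the lowest were WT 1 and WT 2. The means, 45.7 ± 27.6 in ARSL KO and 45.7 ± 27.2 in WT (SD, n = 5 each), lay within the spread of either group (difference 0.02 ± 0.250, SE; limma adjusted p = 0.981). Without WT 3, WT 4 and ARSL KO 4 the difference was 0.15 ± 0.165 (SE; limma adjusted p = 0.745). Its SD was larger than that of 99.6% of tested genes among ARSL KO libraries and of 97.6% among WT libraries.

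Ppp1r15a (ENSRNOG00000020938) encodes GADD34, the inducible subunit that directs a phosphatase to eIF2 alpha and so ends the response. It had 38.6, 27.2, 38.8, 40.0 and 33.2 normalised reads in ARSL KO 1 to 5, against 24.4, 24.2, 60.2, 49.7 and 48.6 in WT 1 to 5. All ARSL KO values lay between those of WT 2 and WT 5, in the gap between the lower and the higher WT libraries. The difference was -0.09 ± 0.146 (SE; limma adjusted p = 0.814), and 0.07 ± 0.143 without WT 3, WT 4 and ARSL KO 4 (SE; limma adjusted p = 0.887).

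Atf3, Ddit3, Trib3, Chac1 and Ppp1r15a shared an order of libraries that genotype does not give. In all 5 genes WT 3, WT 4 and WT 5 lay above WT 1 and WT 2, and ARSL KO 4 was the highest of the ARSL KO libraries. The order of the WT libraries was found in 19.2% of the 8431 tested genes, and together with the place of ARSL KO 4 in 9.65% of them. The order was noticed in these values and is a description, with no test. The same 4 libraries had the lowest summed level of 14 cell cycle genes. That sum was 7202 normalised reads in ARSL KO 4 and 8062 to 9373 in the other ARSL KO libraries, and 5401, 5508 and 7358 in WT 3, 4 and 5 against 9252 and 9159 in WT 1 and 2. Their part in the order of the stress genes was not tested. Scores on the first component had the same order, with WT 3, WT 4 and WT 5 (28.0, 26.8 and -2.96) above WT 1 and WT 2 (-9.71 and -9.64) and ARSL KO 4 the highest of the ARSL KO libraries. Within WT, WT 5 had the highest value of Atf3, Ddit3 and Trib3, and WT 3 that of Chac1 and Ppp1r15a.

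**Figure D2:**
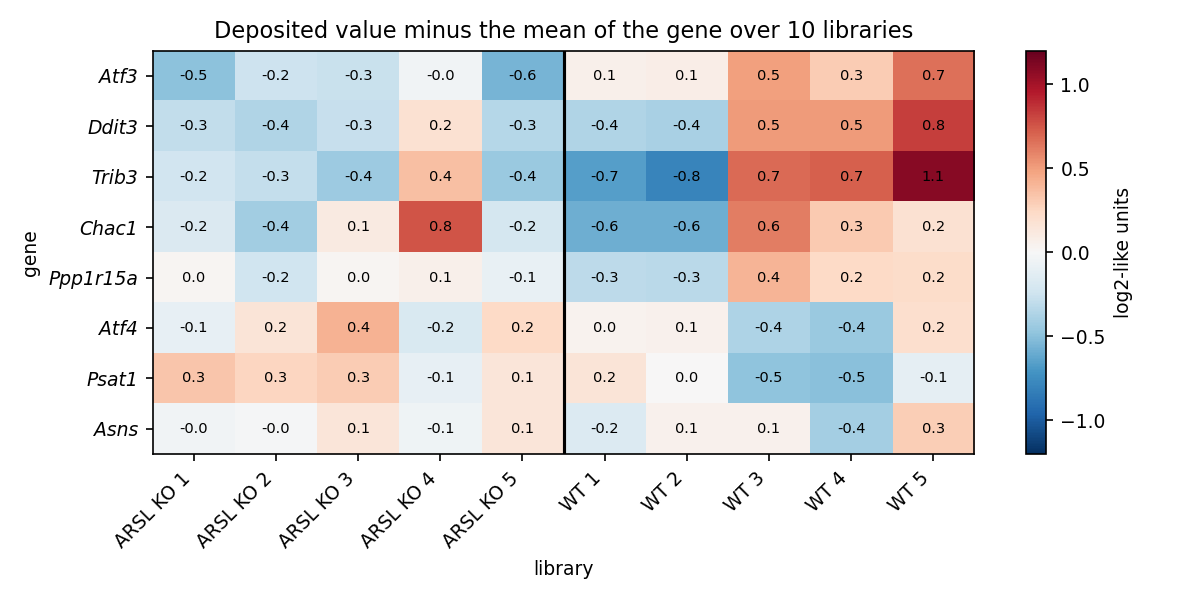
Deposited value of each gene (rows) in each library (columns) minus the mean of the gene over the 10 libraries, in log2-like units, red above and blue below the mean, with the ARSL KO libraries left of the black line and the WT libraries right of it. Trib3 and Ddit3 are high in WT 3, 4 and 5 and in ARSL KO 4, Atf4 and Psat1 are low in WT 3 and WT 4, and Atf3 is below its mean in every ARSL KO library.

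Atf4 (ENSRNOG00000017801), the central transcription factor of the response, did not follow that order. It had 1177, 1403, 1701, 1109.6 and 1499 normalised reads in ARSL KO 1 to 5, against 1302, 1308, 965, 914 and 1461 in WT 1 to 5. WT 3 and WT 4, which were high for Ddit3 and Trib3, had the lowest Atf4 values of the 10 libraries, and ARSL KO 4 the lowest of the ARSL KO libraries. The means were 1378 ± 241 in ARSL KO and 1190 ± 238 in WT (SD, n = 5 each), with a difference of 0.21 ± 0.147 (SE; limma adjusted p = 0.550). Without WT 3, WT 4 and ARSL KO 4 the difference was 0.08 ± 0.099 (SE; limma adjusted p = 0.780).

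Psat1 (ENSRNOG00000013971) encodes phosphoserine aminotransferase, an enzyme of serine synthesis. It had 554, 527, 543, 402 and 482 normalised reads in ARSL KO 1 to 5, against 483, 434, 299.8, 294 and 399 in WT 1 to 5. ARSL KO 1, 2 and 3 lay above every WT library, and WT 3 and WT 4 lay below every other library. The means were 501 ± 62.0 in ARSL KO and 382 ± 83.2 in WT (SD, n = 5 each), 1.31-fold higher in ARSL KO, with a difference of 0.38 ± 0.135 (SE) that did not pass (limma adjusted p = 0.225). It was 0.25 ± 0.089 without WT 3, WT 4 and ARSL KO 4 (SE; limma adjusted p = 0.140).

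Asns (ENSRNOG00000007546) encodes asparagine synthetase, which makes asparagine from aspartate and glutamine. It had 84.8, 86.9, 102, 83.9 and 101 normalised reads in ARSL KO 1 to 5, against 75.0, 92.9, 93.0, 58.3 and 116 in WT 1 to 5. The ARSL KO values lay inside the WT range. The SD among ARSL KO libraries, 0.10 log2-like units, was larger than that of 15.4% of tested genes, and the SD among WT libraries was 0.26. The difference was 0.07 ± 0.123 (SE; limma adjusted p = 0.830), and -0.002 without WT 3, WT 4 and ARSL KO 4 (limma adjusted p = 0.998).

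**Figure D3:**
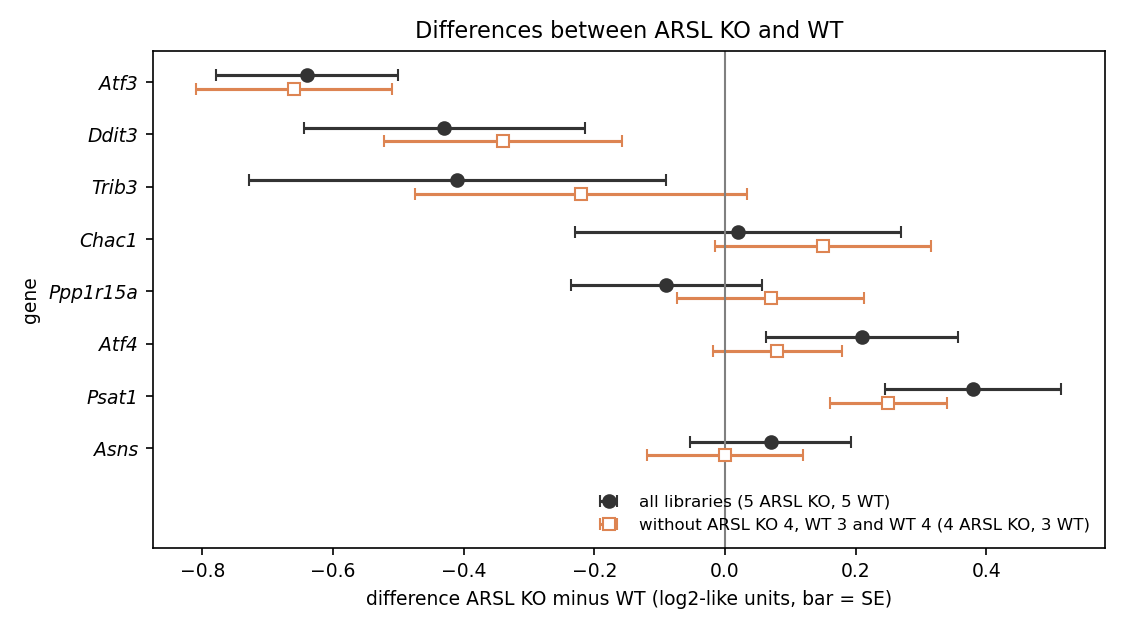
Difference ARSL KO minus WT in log2-like units (horizontal axis, bar = SE) of the 8 genes, with all 10 libraries (filled circles) and without ARSL KO 4, WT 3 and WT 4 (open squares). Atf3 stays near -0.65 in both, at -0.64 and -0.66, while Trib3 moves to -0.22 without those libraries, against -0.41 with all libraries.

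Atf3 was compared with every tested gene that has a proper symbol, by the root mean square difference of the 10 values after the mean of each gene was subtracted. Atf3 itself departed from its own mean by 0.38 log2-like units on this measure. Among the genes most like it over the 10 libraries were Litaf (0.10), Mef2c (0.10), Plekhb1 (0.12) and Akap13 (0.15). These genes differed between genotypes by -0.60, -0.65, -0.58 and -0.55, and Atf3 by -0.64, so the likeness in part restates the genotype difference. Plekhb1 had 6.83 ± 3.49 normalised reads in ARSL KO (SD, n = 5), near the floor. Mef2c, a transcription factor of hypertrophic chondrocytes, had 238 ± 45.3 normalised reads in ARSL KO and 398 ± 68.8 in WT (SD, n = 5 each). Akap13, a scaffold protein for protein kinase A, had 110.0 ± 17.4 in ARSL KO and 179 ± 18.5 in WT (SD, n = 5 each). None of these was among the 10 genes described here. By the same measure the gene most like Trib3 was Ddit3 (0.22), where Trib3 departed from its own mean by 0.62.

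Upstream of ATF4, 16 genes of the eIF2 step were tested, that is, the 4 kinases, the subunits of eIF2 and of its exchange factor eIF2B, and phosphatase subunits. Of these 0 passed (median difference 0.09), and 2 had an unadjusted p under 0.05, as had 13.5% of all tested genes. Eif2ak3, which encodes PERK, the kinase of the endoplasmic reticulum, had 124, 113, 88.6, 118 and 82.5 normalised reads in ARSL KO 1 to 5, against 55.8, 67.7, 98.5, 103 and 83.5 in WT 1 to 5. Its lowest values were those of WT 1 and WT 2, and the groups overlapped (difference 0.27 ± 0.133, SE; limma adjusted p = 0.396). Eif2ak1 (HRI, a heme-regulated kinase) had 112 ± 17.6 in ARSL KO and 135 ± 26.1 in WT, and Eif2ak2 (PKR, activated by double-stranded RNA) 185 ± 35.6 in ARSL KO and 208 ± 44.7 in WT (SD, n = 5 each). Eif2ak4 (GCN2, the sensor of amino acid shortage) had 193 ± 19.5 in ARSL KO and 177 ± 19.6 in WT (SD, n = 5 each). Eif2b3, a subunit of eIF2B with the smallest p of the list, had 27.3 ± 6.35 in ARSL KO and 15.2 ± 7.72 in WT (SD, n = 5 each; limma adjusted p = 0.212). Ppp1r15b, the constitutive counterpart of Ppp1r15a, differed by 0.08 ± 0.140 (SE; limma adjusted p = 0.826).

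Among further genes that ATF4 is known to induce, 0 passed in any list. The 9 enzymes of amino acid and one-carbon synthesis had a median difference of 0.21, with 8 of 9 above 0, against 52.1% of all tested genes, and 3 had an unadjusted p under 0.05, against 13.5% of all tested genes. Phgdh, the first enzyme of serine synthesis, had 242, 269, 217, 201 and 206 normalised reads in ARSL KO 1 to 5, against 209, 194, 116, 122 and 282 in WT 1 to 5. As for Psat1, WT 3 and WT 4 were the lowest libraries, but WT 5 was the highest (difference 0.30 ± 0.173, SE; limma adjusted p = 0.480). Psph, the last enzyme of serine synthesis, had 99.2 ± 14.2 in ARSL KO and 81.7 ± 15.3 in WT (SD, n = 5 each; limma adjusted p = 0.457). Cth, which makes cysteine and had the smallest p of that list, had 17.6 ± 6.18 in ARSL KO and 9.05 ± 4.77 in WT (SD, n = 5 each; limma adjusted p = 0.259). WT 3 and WT 4 were also the lowest libraries for Psph, Shmt2 and Cth, but not for Mthfd2, Mthfd1l, Got1, Gpt2 or Pck2. The part of these libraries in the differences of the list was not tested.

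Of 8 amino acid transporters, 4 lay above 0 and the range was -0.22 to 0.34, with 1 at an unadjusted p under 0.05 (13.5% of all tested genes). That was Slc7a5, a carrier of large neutral amino acids, with 56.0 ± 15.9 normalised reads in ARSL KO and 37.9 ± 12.6 in WT (SD, n = 5 each; limma adjusted p = 0.335). Of 12 aminoacyl-tRNA synthetases, 9 lay above 0 (median 0.14; 2 at an unadjusted p under 0.05, where 13.5% of all tested genes lay). Lars1, for leucine, had 345 ± 28.3 in ARSL KO and 441 ± 40.5 in WT (SD, n = 5 each; limma adjusted p = 0.125). Of 14 other genes downstream of ATF4 or CHOP that had rows, 12 were tested, and further genes of the list had no row. Of the 12, 4 lay above 0 (median -0.09; 1 at an unadjusted p under 0.05). The smallest p was that of Xpot, which exports tRNA from the nucleus, with 263 ± 11.1 in ARSL KO and 216 ± 34.3 in WT (SD, n = 5 each; limma adjusted p = 0.273).

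In the ATF6 and XBP1 arms of the unfolded protein response, which respond to misfolded protein in the endoplasmic reticulum, 1 of 21 tested genes passed and 20 did not. Among all tested genes 1.14% passed, and 10 of the 21 lay above 0 (median -0.04). Sdf2l1, an endoplasmic reticulum protein of a chaperone complex, was lower in ARSL KO, with 281, 279, 268, 295 and 223 normalised reads in ARSL KO 1 to 5, against 386, 353, 620, 605 and 415 in WT 1 to 5. The groups did not overlap, as in 4.26% of tested genes, and WT 3 and WT 4 were highest (difference -0.71 ± 0.145, SE; limma adjusted p = 0.027; -0.49 without WT 3, WT 4 and ARSL KO 4, limma adjusted p = 0.003). Its call was lost in 6 of 10 fits with 1 library left out, without WT 3 or 4 or ARSL KO 1, 2, 3 or 5 (limma adjusted p up to 0.099). In the fit without WT 3, WT 4 and ARSL KO 4 together, 3.56% of tested genes passed.

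Of 15 immediate early genes other than Atf3 that had rows, 11 were tested, and further genes of the list had no row. Of the 11, 0 passed (median -0.03). An unadjusted p under 0.05 was found for 2 of them, and for 13.5% of all tested genes, against which the next counts also stand. Ccn1, a secreted matrix-associated protein with the smallest p, had 1800.4, 1737, 2469, 1953 and 2456 normalised reads in ARSL KO 1 to 5, against 1422, 1430, 1242, 1296 and 1704 in WT 1 to 5. Its groups did not overlap, as in 4.26% of tested genes, and pointed opposite to Atf3 (difference 0.53 ± 0.124, SE; limma adjusted p = 0.057). Without WT 3, WT 4 and ARSL KO 4, a fit in which 3.56% of tested genes passed, its difference was 0.45 (limma adjusted p = 0.018). Fos and Jun, whose products pair with ATF3, differed by -0.03 and -0.04. Of 16 further bZIP factors that had rows, 11 were tested and 0 passed (median 0.12; 1 at an unadjusted p under 0.05). Nfe2l2, the factor of the oxidative stress response, had 145 ± 15.1 in ARSL KO and 119 ± 16.9 in WT (SD, n = 5 each; limma adjusted p = 0.348). Of the 14 cell cycle genes 0 passed (median 0.25; 1 at an unadjusted p under 0.05), while all 14 lay above 0 (0.01 to 0.38), against 52.1% of all tested genes. The smallest p was that of the mitotic kinase Plk1, with 608 ± 74.9 in ARSL KO and 465 ± 110 in WT (SD, n = 5 each; limma adjusted p = 0.236). The summed level of the 14 genes was lowest in WT 3 and WT 4, at 5401 and 5508 normalised reads. In WT 1, 2 and 5 it was 7358 to 9252, inside the ARSL KO range of 7202 to 9373.

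Among the marker lists, 2 of 15 tested chondrocyte markers passed, both lower in ARSL KO, where 1.14% of all tested genes passed. Of the 15, 3 lay above 0, and the median difference was -0.08 (range -1.16 to 0.22). The 2 that passed were the matrix genes Ucma, with 7.12 ± 3.80 normalised reads in ARSL KO and 50.2 ± 30.5 in WT, and Col11a1, with 4392 ± 858 in ARSL KO and 10436 ± 4314 in WT (SD, n = 5 each; limma adjusted p = 0.018 and 0.021). In ARSL KO Ucma averaged under the filter level of about 10.7 normalised reads, and it entered the test only through its WT values. Of 5 tested fibroblast markers 2 passed, both lower in ARSL KO, and 2 of the 5 lay above 0 (median -0.17). Col6a2, a collagen VI chain, had 539 ± 143 in ARSL KO and 1240 ± 417 in WT, and S100a4 had 7.14 ± 2.35 in ARSL KO and 22.8 ± 5.93 in WT (SD, n = 5 each; limma adjusted p = 0.018 for each). The ARSL KO mean of S100a4 was also under the filter level, so S100a4 was tested only through its WT values. Both counts of 2 thus include a gene near the floor. Of the endothelial, macrophage and osteoblast markers 4 were tested, all of osteoblasts (Alpl, Runx2, Spp1 and Dlx5), and 0 passed. The smallest p was that of Alpl, an alkaline phosphatase, with 245 ± 32.1 in ARSL KO and 356 ± 51.9 in WT (SD, n = 5 each; limma adjusted p = 0.057). Dlx5 lay the other way without overlap, as in 4.26% of tested genes, with 237 to 352 normalised reads in ARSL KO and 168 to 226 in WT (limma adjusted p = 0.109). Runx2 and Spp1 differed by -0.23 and 0.12. The part of these genes in the Atf3 difference was not tested.

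**Figure D4:**
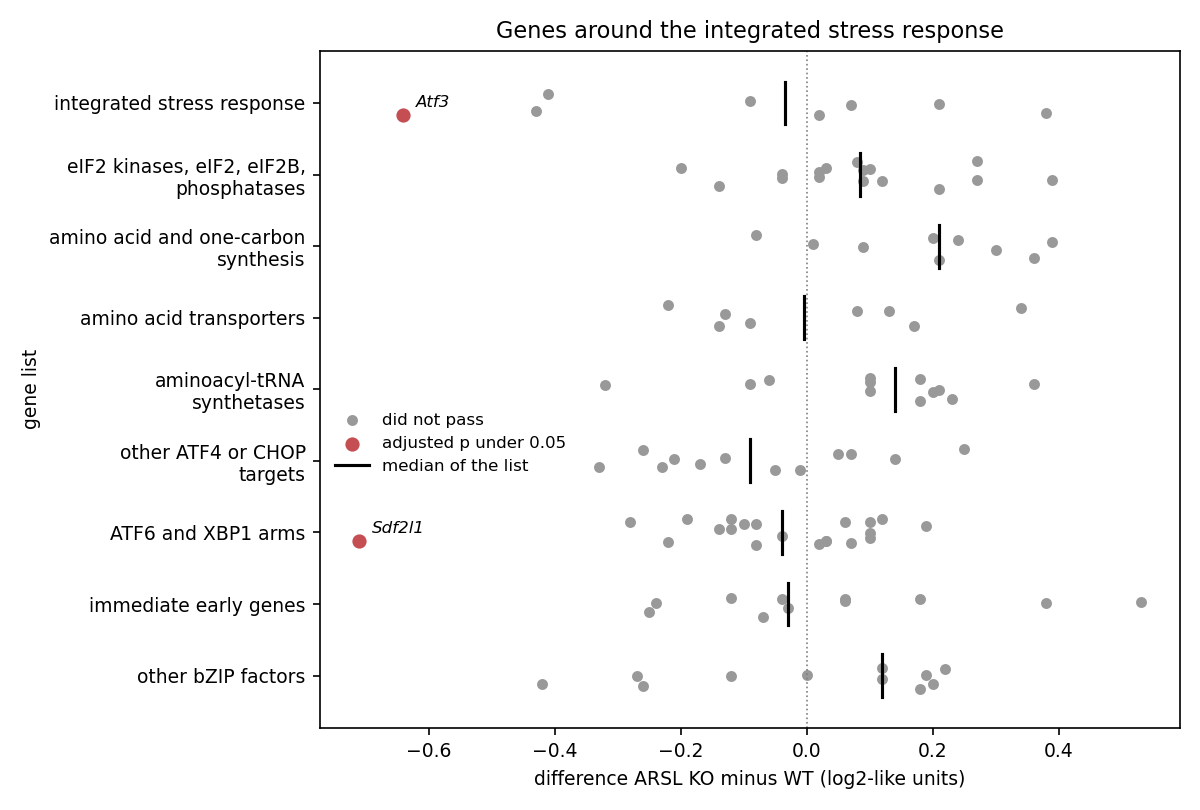
Difference ARSL KO minus WT in log2-like units (horizontal axis) of each tested gene in the lists around the integrated stress response (rows), with the list median as a black bar and genes that passed in red; points are spread vertically at random within a row. Atf3 at -0.64 and Sdf2l1 at -0.71 are the genes that passed, and the other genes lie between -0.43 and 0.53.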

How the data were processed

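Expression was measured by digital mRNA sequencing in 5 ARSL KO and 5 WT libraries. The deposited table holds log2-like values for 10184 genes, which the authors named variance-stabilized and normalized. The submitters' processing notes name bcl2fastq, STAR 2.7.11a, HTSeq and rn6. Not given in the sources used here are the tool of the transformation, the gene filter and any use of strand. Inverting the closed form of a variance-stabilizing transformation gave whole reads for every value (largest departure 8.5e-09 reads), with at least 30 reads per gene over all libraries.

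Genotypes were compared over 8431 genes by limma (version 3.58.1; R 4.3.3), two-sided, with an intensity trend and Benjamini-Hochberg adjustment. Because these values are not counts, no count model was used as the main test. Alternatives were a replicate block, other filters, median centring, quantile normalization, other variance estimates, array weights, limma-voom on the recovered reads, and fits without single libraries or without WT 3, WT 4 and ARSL KO 4. The script was also tested on simulated data.

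The genes and lists were chosen with earlier results of these data known. By rule, all 10 genes were named, with the genes of each list that passed or else the one with the smallest p, and the 5 genes most like Atf3, of which 1 is not reported here. The eIF2 kinases, Ppp1r15b, Phgdh, Psph, Shmt2, Mthfd2, Mthfd1l, Got1, Gpt2 and Pck2 were named outside that rule, after their values were seen. So were Fos, Jun, Btg2, Vim, Col5a2, Thy1, Cd68, Runx2, Spp1 and Dlx5 and the gene most like Trib3.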

Additional observations from a re-analysis of the deposited data

Results flagged for a closer look

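The 16 sets of 5 log2-like values (8 genes in 2 genotypes) were searched for a library far from the others. In 2 sets 1 library stood apart by a gap of more than 0.71 of the range in log2-like units. Chance gives about 1 in 20 such sets. Both were ARSL KO 4. For Ddit3 the gap to the next library was 0.839 of the ARSL KO range, with 135 normalised reads in ARSL KO 4 and 80.4 to 87.7 in the other ARSL KO libraries. For Trib3 the gap was 0.739 of the range, with 94.7 normalised reads in ARSL KO 4 and 40.4 to 51.5 in the other ARSL KO libraries. ARSL KO 4 also had the lowest cell cycle sum of the ARSL KO libraries, 7202 normalised reads; its part in these values was not tested.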

How the results depend on the processing

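Of the 8 genes, 1 (Atf3) passed, against 0 with the stricter filter, which removed Atf3, and 0 with limma-voom. With 1 library left out the count was 0 to 1. The Atf3 difference ran from -0.71 to -0.56 in those fits (limma adjusted p 0.028 to 0.127; lost in 7 of 10). It was -1.22 with limma-voom and TMM scaling (adjusted p = 0.054) and -1.21 with the authors' size factors (0.056), both on the log2 scale of reads, and it kept its call without WT 3, WT 4 and ARSL KO 4 and under the remaining settings that used all 10 libraries. The Ppp1r15a difference was 0.05 with array weights and 0.07 without WT 3, WT 4 and ARSL KO 4, and that of Asns was -0.002 without these 3. With 1 library left out, Asns ran from -0.02 to 0.15 and Chac1 from -0.17 to 0.18. Trib3 ran from -0.66 (without WT 2) to -0.19 (without WT 5), and was -0.63, -0.29 and -0.28 without WT 1, 3 and 4; Ddit3 was -0.28 without WT 5; Atf4 was 0.13 without ARSL KO 3 and 0.12 without WT 4; Ppp1r15a ran from -0.18 (without WT 1 or 2) to -8e-05 (without WT 3). None of these passed. The ATF6 and XBP1 list held 0 to 1 calls with 1 library left out. The immediate early list held 1 call (Ccn1) with the replicate block and without the 3 libraries, 2 (Ccn1 and Btg2) with array weights, and 0 to 1 with 1 library left out. Over all genes, 96 passed, against 219 with array weights, 300 without the 3 libraries, 60 of 5770 with the stricter filter, and 33 to 101 with 1 library left out, the fewest without ARSL KO 3 (33), 2 or 5 (37 each), 1 (53) or WT 3 (62). The deviations of same-numbered libraries correlated at -0.06, 0.07, -0.29, 0.59 and 0.26 for numbers 1 to 5, not above 0.1 in every pair, so the numbers were not taken to pair the libraries; ARSL KO 2 and 4 correlated best with their own number. With the replicate block 136 genes passed, Atf3 among them (adjusted p = 0.036). Low counts limit Atf3, Chac1 and Ppp1r15a most.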

Other observations

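For every 100 reads of Ddit3, the libraries held 17.5, 28.4, 25.3, 22.5 and 16.5 reads of Atf3 in ARSL KO 1 to 5, against 43.5, 45.7, 32.7, 26.5 and 30.3 in WT 1 to 5. ARSL KO 2 lay above WT 4, and the other ARSL KO libraries lay below every WT library. For Trib3 the same ratio was 46.3 to 70.3 in the ARSL KO libraries, against 38.0, 32.1, 72.2, 74.6 and 78.9 in WT 1 to 5, so that ARSL KO values lay between the lower and the higher WT values. The ratios are compared between libraries, not between genes. Both were chosen after the values were seen and have no test.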
